A study of Mus musculus with 8 samples.

Results

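Goblet cells are the mucus-secreting cells of the intestinal epithelium, and 10 of their best known genes are described here in the colon of wild type and STAT5b-deficient mice. The genes were taken by name: the transcription factors Atoh1 and Spdef, the secreted mucus proteins Muc2, Tff3, Clca1 and Fcgbp, the endoplasmic reticulum proteins Agr2 and Ern2, and the granule and protease genes Capn9 and Sytl2. Of these 10, 8 had a probe set with a matched gene name, among 14351 genes measured in all. Muc2 and Fcgbp were not analysed here, as no probe set was matched to them.

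Total RNA of adult mouse colon was hybridised to Affymetrix expression arrays. The WT group holds 3 arrays of wild type females. The STAT5b-/- group holds 3 arrays of mice with the genotype STAT5b-/-, which are deficient in a transcription factor of the growth hormone and cytokine pathways; replicate 1 is male and the others are female. A wild type female sample titled REF, a word the labels do not explain, is present as 2 columns that differ by at most 2.47e-07 of their value, and was counted as 1 sample. No agent was given in any group as far as the labels say. The labels name no strain and do not say which part of Stat5b the mutation removes, whether it is limited to a cell type, or whether replicates are separate animals. The p-values therefore cover the spread among these samples alone, and that spread may be technical.

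For each probe set, every array's value was divided by the average of the 3 WT arrays. A ratio of 1 is the WT mean, and levels of different genes cannot be compared, nor can the presence of a cell type in the tissue be read from a ratio. Array medians ran from 0.948 (REF) to 1.04 (WT replicate 2). Within an array the log2 ratios had an SD of 0.289 to 0.363 in WT, 0.402 in REF and 0.646 to 0.737 in STAT5b-/-. Stat5b itself had ratios of 1.08, 0.930 and 0.993 in WT and 1.16, 1.17 and 1.26 in the arrays labelled STAT5b-/-. It was not measured lower there (log2 fold change 0.26 ± 0.12 SE, limma adjusted p = 0.175). A probe set outside the removed part would check nothing, so the directions below rest on the labels.

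As background, goblet cells arise from crypt progenitors that escape Notch signalling and switch on Atoh1, and Spdef acts later in their maturation. Their main product is Muc2, a gel-forming mucin that is folded and linked by disulfide bonds in the endoplasmic reticulum, heavily glycosylated in the Golgi, packed into granules and released as the mucus layer. Several of the other proteins described here fold that mucin, cleave it, travel with it or move its granules.

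In the STAT5b-/- arrays 7 of the 8 measured goblet genes fell and none rose. The falls ran from 2.57-fold for Clca1 to 9.62-fold for Capn9, and Tff3 did not pass the test. The background is the share of all 14351 genes that passed limma at an adjusted p under 0.05, which was 8.42% lower (1209 genes) and 13.3% higher (1910 genes). The median log2 fold change was -1.84 over the 8 goblet genes and 0.0068 over all genes. In the same 7 genes every STAT5b-/- array lay below every WT array, a pattern that 16.5% of all genes had, and below REF as well, which 14.0% of all genes had. These are bulk tissue arrays, so fewer goblet cells and less RNA per goblet cell cannot be told apart.

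**Figure D1:**
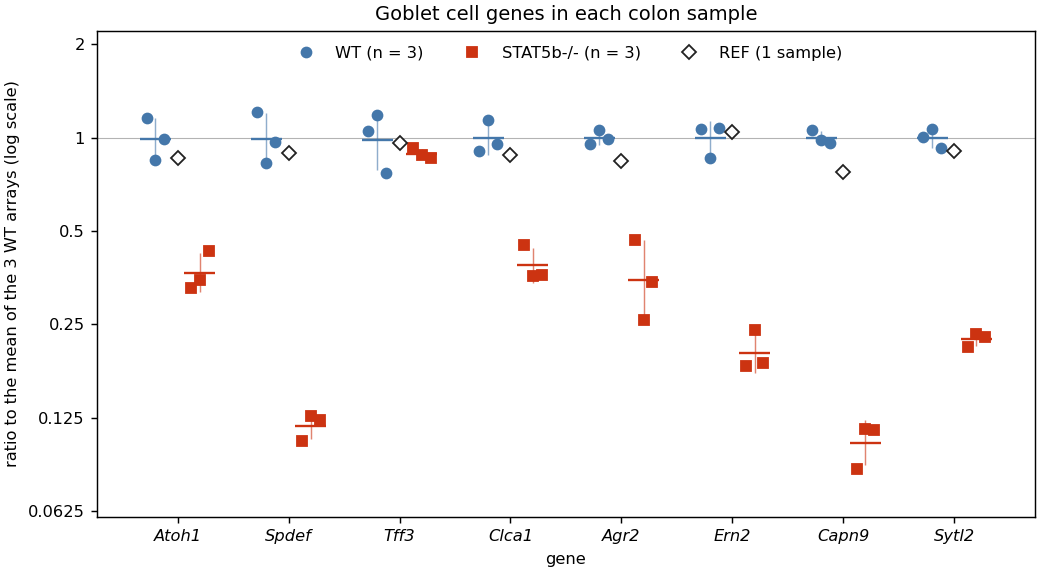
Ratio to the WT mean (log axis, no unit) of the 8 measured goblet genes in each sample; circles are the 3 WT arrays, squares the 3 STAT5b-/- arrays and diamonds REF, with a horizontal line at the mean of the log2 ratios and a vertical line of 1 SD on each side. The STAT5b-/- squares lie between 0.0856 and 0.468 in every gene but Tff3, where they lie between 0.861 and 0.925 among the WT circles.

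RefSeq promoters are shown for the measured goblet genes that have one in the reference table, Atoh1, Spdef, Agr2 and Capn9, because 3 of these genes fell together with the 1 that encodes the earliest goblet regulator, and their upstream sequence was searched for the motifs of the factor families concerned. Each is the 250 bases before the annotated start on assembly GRCm38.p6, in the gene's own direction: chr6:64728875-64729124 (plus strand) for Atoh1, chr17:27728952-27729201 (minus strand) for Spdef, chr12:35992675-35992924 (plus strand) for Agr2 and chr8:124575861-124576110 (plus strand) for Capn9. Capitals mark matches on either strand to the E-box CANNTG bound by basic helix-loop-helix proteins such as Atoh1, to GGAT, the form of the ETS-family core found in the preferred Spdef site, and to the element ACGTG that is part of sites bound by factors of the unfolded protein response.
Atoh1: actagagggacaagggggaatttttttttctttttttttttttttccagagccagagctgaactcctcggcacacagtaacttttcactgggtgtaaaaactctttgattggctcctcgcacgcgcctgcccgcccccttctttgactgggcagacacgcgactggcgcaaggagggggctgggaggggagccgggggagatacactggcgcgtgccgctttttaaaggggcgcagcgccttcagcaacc
Spdef: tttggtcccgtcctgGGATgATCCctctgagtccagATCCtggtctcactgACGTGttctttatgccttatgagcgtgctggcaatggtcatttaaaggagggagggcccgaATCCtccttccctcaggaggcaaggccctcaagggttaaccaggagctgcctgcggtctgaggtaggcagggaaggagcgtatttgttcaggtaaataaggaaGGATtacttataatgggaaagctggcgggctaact
Agr2: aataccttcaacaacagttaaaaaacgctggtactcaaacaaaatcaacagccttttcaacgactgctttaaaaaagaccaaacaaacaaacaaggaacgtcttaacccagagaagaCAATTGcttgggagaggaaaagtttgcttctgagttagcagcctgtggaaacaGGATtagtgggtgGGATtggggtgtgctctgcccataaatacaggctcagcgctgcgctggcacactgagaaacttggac
Capn9: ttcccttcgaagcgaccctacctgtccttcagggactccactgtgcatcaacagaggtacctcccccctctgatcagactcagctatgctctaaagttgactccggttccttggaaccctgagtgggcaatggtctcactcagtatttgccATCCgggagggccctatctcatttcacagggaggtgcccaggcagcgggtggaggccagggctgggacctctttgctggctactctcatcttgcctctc

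The Atoh1 promoter held no match to these 3 strings of letters; the other form of the ETS core, GGAA, was not searched in any promoter. The Spdef promoter held 5 matches to GGAT and 1 to ACGTG, 199 bases before the start. The Agr2 promoter held 1 E-box, whose letters were CAATTG, 133 bases before the start, and 2 matches to GGAT. The Capn9 promoter held 1 match to GGAT. No match to TTCNNNGAA, the palindrome that STAT5 proteins bind, was found in these 4 windows, nor in those of Muc2 and Fcgbp. The Muc2 window held 2 E-boxes and 4 matches to GGAT, and the Fcgbp window 3 E-boxes and 2 matches to GGAT. Of all 32851 promoters of the same length, 66.2% held an E-box, 74.1% a GGAT, 16.6% an ACGTG and 7.0% a TTCNNNGAA. An ACGTG can be part of an E-box (CACGTG). A match describes letters and not a bound site, and its absence says only that these letters are not in this window.

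Both transcription factors were lower in the STAT5b-/- arrays. Atoh1, the basic helix-loop-helix factor that commits crypt progenitors to the secretory lineage, had ratios of 1.16, 0.849 and 0.992 in WT, 0.328, 0.349 and 0.432 in STAT5b-/- and 0.859 in REF. The highest STAT5b-/- array was thus at 0.432 and the lowest WT array at 0.849, so the groups were apart. Atoh1 had a log2 fold change of -1.43 ± 0.17 (95% interval -1.85 to -1.02, adjusted p = 0.00231), a 2.70-fold fall. Quantile normalization forces all arrays to 1 distribution. The log2 ratios had an SD of 0.289 to 0.363 in WT arrays and 0.646 to 0.737 in STAT5b-/- arrays. It therefore widens the WT values and narrows the STAT5b-/- values, so some loss of calls, here and below, is built into it. With it Atoh1 had a log2 fold change of -1.16 and did not pass (limma adjusted p = 0.0784).

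Spdef, the ETS-family factor that drives goblet and Paneth cell maturation, had ratios of 1.21, 0.825 and 0.964 in WT, 0.105, 0.127 and 0.123 in STAT5b-/- and 0.893 in REF. All 3 STAT5b-/- arrays sat at around 0.12 of the WT mean, far from the lowest WT array. Its log2 fold change was -3.07 ± 0.18 (95% interval -3.48 to -2.65, adjusted p = 0.000181), an 8.38-fold fall. Spdef was the 50th lowest of the 14351 log2 fold changes and Atoh1 the 284th.

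Among 24 measured transcription factors and Notch genes of goblet and secretory fate, 9 were lower and 4 higher. Over all genes the shares were 8.42% lower and 13.3% higher. The list's median log2 fold change was -0.23. Creb3l4, a membrane-bound factor of the endoplasmic reticulum, had ratios of 1.01, 1.04 and 0.941 in WT and of 0.112, 0.104 and 0.136 in STAT5b-/-, an 8.56-fold fall (log2 fold change -3.10 ± 0.14, adjusted p = 8.833e-05). Gfi1, a zinc-finger repressor downstream of Atoh1 in the secretory lineage, fell 5.87-fold from 1.08, 0.917 and 1.00 to 0.151, 0.182 and 0.177. Bhlha15, also called Mist1, a factor of cells with a large secretory apparatus, fell 3.16-fold. These 3 log2 fold changes, from -3.10 to -1.66, lay in about the range spanned by Spdef and Atoh1. Creb3l1 (log2 fold change -1.65 ± 0.23), Foxa3 (-1.27 ± 0.14), Xbp1, the factor activated by the IRE1 branch of the unfolded protein response (-0.83 ± 0.14), and Foxa1 (-0.67 ± 0.12) also fell. Nkx2-2 and Hes6 completed the 9, and both calls were lost when any of the 3 STAT5b-/- arrays was left out.

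The 4 that rose are known as factors of the Notch pathway or of intestinal epithelium at large. A count of 4 among 24 does not set the list apart from the 13.3% of all genes that were higher. Elf3, an epithelial ETS-family factor, rose 2.19-fold, from 0.977, 1.06 and 0.965 to 2.21, 2.08 and 2.27 (adjusted p = 0.00122). Hes1, the Notch target that represses Atoh1, rose 1.79-fold, from 0.972, 0.928 and 1.10 to 1.72, 1.64 and 2.0 (log2 fold change 0.84 ± 0.14, adjusted p = 0.00703), and stood at 1.24 in REF. Hnf4a (0.70 ± 0.12 on the log2 scale) and Cdx2 (0.79 ± 0.17), factors of intestinal epithelium, made up the rest, and the call of Cdx2 was lost without any of the 3 STAT5b-/- arrays. The Notch ligands Dll1 (0.38 ± 0.26) and Dll4 (0.25 ± 0.17), and Neurog3, Klf4 and Sox9, did not pass. With quantile normalization 4 of the 24 were lower and 1 higher; Hes1, Hnf4a, Foxa3, Xbp1 and Foxa1 then lost their calls.

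Of the secreted mucus proteins with a probe set, Clca1 fell and Tff3 did not. Clca1, a metalloprotease secreted with the mucus that cleaves Muc2, had ratios of 0.902, 1.14 and 0.955 in WT, 0.449, 0.358 and 0.361 in STAT5b-/- and 0.878 in REF. No STAT5b-/- array reached the lowest WT array. Clca1 had a log2 fold change of -1.36 ± 0.16 (95% interval -1.73 to -0.99, adjusted p = 0.00191), a 2.57-fold fall, the smallest of the 7. Close Clca paralogues can share probe sequence, so the values of single Clca genes are uncertain.

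Tff3, the trefoil peptide of intestinal goblet cells that is released with mucin and takes part in epithelial repair, had ratios of 1.05, 1.18 and 0.767 in WT, 0.925, 0.879 and 0.861 in STAT5b-/- and 0.963 in REF. The 3 STAT5b-/- arrays lay inside the WT range. The log2 fold change was -0.15 ± 0.18 (95% interval -0.58 to 0.28, adjusted p = 0.618), an interval that does not exclude a fall of 0.58 on the log2 scale but lies above the intervals of all the other 7 genes. Leaving out 1 array at a time gave -0.33 to -0.02.

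**Figure D2:**
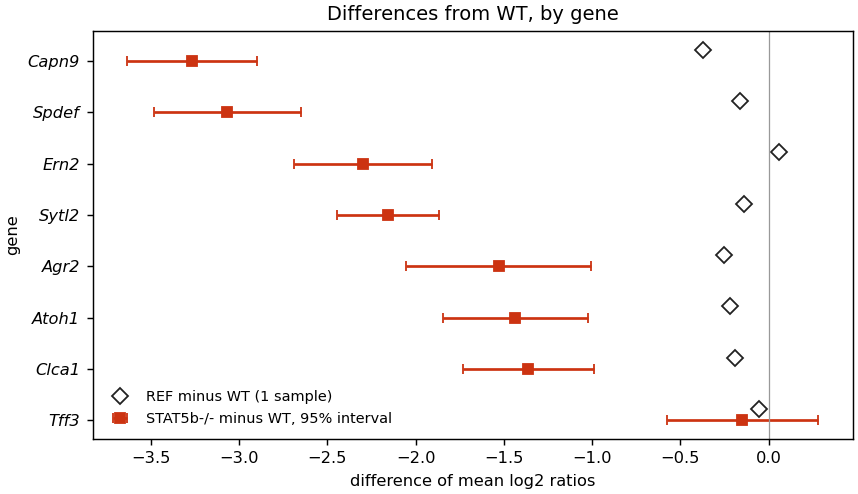
Squares are the STAT5b-/- minus WT difference of mean log2 ratios (horizontal axis) of the 8 measured goblet genes, ordered by size. Bars are 95% intervals of the limma fit. Diamonds are the log2 of the REF ratio to the WT mean, a different statistic from the squares. The 7 upper intervals lie wholly below -0.98 and only that of Tff3 crosses 0, while all diamonds lie between -0.37 and 0.06.

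Other secreted goblet products showed the same mixture of large falls and values near WT. Of 20 measured, 10 were lower and 2 higher (8.42% and 13.3% over all genes), with a median log2 fold change of -0.88. Sval1, a seminal-vesicle-antigen-like secreted protein, was at the lowest value of the table, 0.01, in all 3 STAT5b-/- arrays, which makes its fall at least 93.9-fold. Ang4, an antimicrobial angiogenin, had ratios of 1.01, 1.13 and 0.854 in WT and of 0.0123, 0.0165 and 0.01 in STAT5b-/-, a fall of at least 78.5-fold. Both were close to WT in REF, at 0.7 and 0.806. Itln1 was likewise at 0.01 in all 3 STAT5b-/- arrays, but wild type was unsteady there, with WT ratios of 1.46, 0.273 and 1.27 and 0.148 in REF. Spink1, a trypsin inhibitor, fell 28.4-fold, Retnlb, the goblet product RELM-beta, 8.02-fold, and Ccl6, a chemokine, 7.78-fold. Spink4 fell 1.84-fold, a call that was lost without WT replicate 1, STAT5b-/- replicate 2 or STAT5b-/- replicate 3. Zg16, the lectin-like protein of the mucus layer, did not pass (ratios 0.957, 1.16 and 0.883 against 0.905, 0.713 and 0.774, adjusted p = 0.204). Guca2a, guanylin, rose by 0.72 ± 0.11 on the log2 scale, and Ang rose by 0.69 ± 0.16. The call of Ang was lost when WT replicate 3 or any STAT5b-/- array was left out, which leaves 1 higher. With quantile normalization 6 of the 20 were lower and none higher.

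The nearest relatives of the mucus proteins did not all move together. Measured were 9 genes of the Clca, trefoil and gel-forming mucin families, leaving out the goblet genes above. Of these 9, 4 were lower and 1 higher (8.42% and 13.3% over all genes). Clca2 fell 5.17-fold, from 1.11, 0.705 and 1.19 to 0.157, 0.205 and 0.209. Clca4a, a paralogue known from enterocytes, rose 2.40-fold, from 1.00, 1.06 and 0.936 to 1.90, 2.62 and 2.78, and was at 0.999 in REF. Clca3b (log2 fold change -1.17 ± 0.21) and Clca3a2 (-1.13 ± 0.19) fell, as did Clca3a1 (-0.76 ± 0.15), whose call was lost without STAT5b-/- replicate 2 or 3. Clca4b did not pass (0.32 ± 0.31). None of these 5 Clca calls passed with quantile normalization.

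Tff2, a trefoil peptide better known from the stomach, had WT ratios of 0.248, 0.303 and 2.45, so 1 WT array set its mean. Against these the STAT5b-/- ratios of 0.209, 0.154 and 0.176 did not pass (log2 fold change -1.67 ± 0.82, adjusted p = 0.203), and REF was at 0.224. Tff1 (-0.23 ± 0.26) and the gel-forming mucin Muc5b (-0.01 ± 0.22) did not pass either, and the sign of the Muc5b value turned with median centring, with quantile normalization and with REF counted as wild type. Of 4 measured membrane mucins, which stay on the cell surface, Muc1 fell 9.0-fold, from 0.892, 0.724 and 1.38 to 0.0879, 0.121 and 0.116. With quantile normalization Muc1 was still lower (log2 fold change -2.41) but lost its call (limma adjusted p = 0.0538). Muc4, Muc13 and Muc20 did not pass.

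Both genes of the endoplasmic reticulum fell. Agr2, a protein disulfide isomerase that goblet cells need to make Muc2, had ratios of 0.951, 1.06 and 0.992 in WT, 0.468, 0.258 and 0.343 in STAT5b-/- and 0.838 in REF. Its STAT5b-/- arrays were the most scattered of the 8 genes, with a mean ratio of 0.357 ± 0.105 (SD, n = 3), and still apart from WT. The log2 fold change was -1.53 ± 0.22 (95% interval -2.05 to -1.01, adjusted p = 0.00432), a 2.89-fold fall. Ern2, the IRE1-beta stress sensor of mucus-secreting epithelia, had ratios of 1.07, 0.860 and 1.07 in WT, 0.184, 0.240 and 0.187 in STAT5b-/- and 1.04 in REF. It was the only one of the 8 genes with REF above the WT mean. The log2 fold change was -2.30 ± 0.16 (95% interval -2.69 to -1.91, adjusted p = 0.000396), a 4.92-fold fall.

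The paralogues of these 2 genes did not pass the test. Agr3 had ratios of 0.977, 1.02 and 1.00 in WT and of 0.826, 1.55 and 0.789 in STAT5b-/- (log2 fold change 0.00 ± 0.26). Ern1, the IRE1-alpha sensor that most cells carry, had 0.551, 1.63 and 0.819 against 0.679, 0.637 and 0.686 (-0.44 ± 0.37). The scatter of WT replicate 2 in Ern1 and of STAT5b-/- replicate 2 in Agr3 leaves both intervals wide, -1.31 to 0.44 for Ern1 and -0.61 to 0.62 for Agr3. Whether either paralogue differed from its goblet relative was not tested.

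Of 15 measured folding, disulfide and cross-linking enzymes, 10 were lower and none higher (8.42% and 13.3% over all genes). Their median log2 fold change was -0.94. Fkbp11, a prolyl isomerase of secretory cells, fell 9.47-fold, and its STAT5b-/- ratios of 0.0638, 0.0996 and 0.181 were spread. Txndc5 (3.20-fold) and Pdia6 (2.45-fold), both disulfide isomerases, and Creld2 (2.57-fold), a stress-induced chaperone, fell with STAT5b-/- arrays that lay close together, as in Txndc5 at 0.304, 0.292 and 0.342. The calls of Ero1a, Ero1b and Tgm3, the last a transglutaminase that cross-links Muc2, were each lost without at least 4 of the 6 arrays in turn, and 4 of the 15 were lower with quantile normalization. For Ero1b, REF was at 0.424, below the STAT5b-/- mean ratio of 0.562, and with REF counted as wild type its call was lost too (adjusted p = 0.315).

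Mucin glycosylation genes had calls in both directions. Of 19 measured, 11 were lower and 3 higher (8.42% and 13.3% over all genes), with a median log2 fold change of -0.70. The 3 higher do not set the list apart from the share of all genes. Chst4, a sulfotransferase of mucin sugars, fell 5.19-fold, from 1.09, 1.06 and 0.842 to 0.173, 0.223 and 0.182. Gcnt1, a core-2 branching enzyme, fell 3.24-fold and Fut2, which adds fucose, 1.96-fold. Gcnt3, the mucin-type branching enzyme, rose 6.08-fold (adjusted p = 0.00536), from scattered WT ratios of 0.992, 0.472 and 1.54 to 5.72, 5.58 and 5.05. With quantile normalization Gcnt3 was still higher (log2 fold change 1.78) but lost its call (limma adjusted p = 0.366). St6galnac1, the sialyltransferase of goblet cells, was 9.63-fold lower against WT (ratios 0.128, 0.0861 and 0.0834), but REF, also wild type, was at 0.0882. With REF counted as wild type its call was lost (adjusted p = 0.0815). The count of 11 fell to 7 without STAT5b-/- replicate 2 or 3, and to 1, Chst4, with quantile normalization.

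Capn9 and Sytl2 both fell, with STAT5b-/- arrays close together. Capn9, a calpain protease of mucous cells in the stomach and gut, had ratios of 1.06, 0.979 and 0.963 in WT, 0.0856, 0.115 and 0.114 in STAT5b-/- and 0.772 in REF. Its REF value was the lowest of the 8 genes, and still far above the highest STAT5b-/- array. The log2 fold change was -3.27 ± 0.15 (95% interval -3.63 to -2.90, adjusted p = 9.346e-05), a 9.62-fold fall, the 43rd lowest of all 14351 genes. Sytl2, a synaptotagmin-like protein that binds Rab27 and docks secretory granules, had ratios of 1.01, 1.07 and 0.923 in WT, 0.211, 0.233 and 0.227 in STAT5b-/- and 0.906 in REF. The log2 fold change was -2.16 ± 0.12 (95% interval -2.45 to -1.87, adjusted p = 0.000171), a 4.46-fold fall. Its 4 probe sets, which read transcript variants of the gene, differed by at most 0.00318 of their value and are not independent readings.

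Other calpains had unlike values. Of 11 measured, 2 were lower and 1 higher, with a median log2 fold change of -0.11. Over all genes 8.42% were lower and 13.3% higher, and counts this small do not set the list apart from those shares. Capn13 fell 29.0-fold, from WT ratios of 0.747, 1.74 and 0.509 to 0.0231, 0.0371 and 0.0317. Capn8, the partner of Capn9 in gastric mucous cells, fell 4.37-fold, from 1.31, 0.764 and 0.926 to 0.215, 0.259 and 0.199. Capn1, a calpain found in most cells, rose 2.51-fold, to 3.55, 2.18 and 2.03. Capn2 (-0.11 ± 0.14) and the common small subunit Capns1 (-0.05 ± 0.12) did not pass. With quantile normalization the calls of Capn8 and Capn1 were lost.

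Genes that work with Sytl2 in granule release were among those that fell. Of 17 granule transport and exocytosis genes, 9 were lower and 1 higher (8.42% and 13.3% over all genes). Their median log2 fold change was -0.64. Myrip, which links Rab27 to myosin motors, fell 5.68-fold, from 1.10, 0.911 and 0.987 to 0.174, 0.175 and 0.177. Rab27b, the granule GTPase of secretory epithelia, fell 3.56-fold, from 1.06, 1.02 and 0.914 to 0.269, 0.261 and 0.314. Rab27a fell 2.22-fold and Rab3d, another granule GTPase, 2.68-fold. Among the other synaptotagmin-like genes, Sytl4 (log2 fold change -1.53 ± 0.20) and Sytl1 (-1.39 ± 0.28) fell, and Sytl3 did not pass (0.18 ± 0.16). Without STAT5b-/- replicate 3 Sytl1 was as low (-1.39) but lost its call (limma adjusted p = 0.0547). The 1 higher gene, Vamp8, lost its call without WT replicate 1 or any STAT5b-/- array. With quantile normalization 3 of the 17 were lower, and Rab27a, Rab3d, Sytl4 and Sytl1 were not among them.

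**Figure D3:**
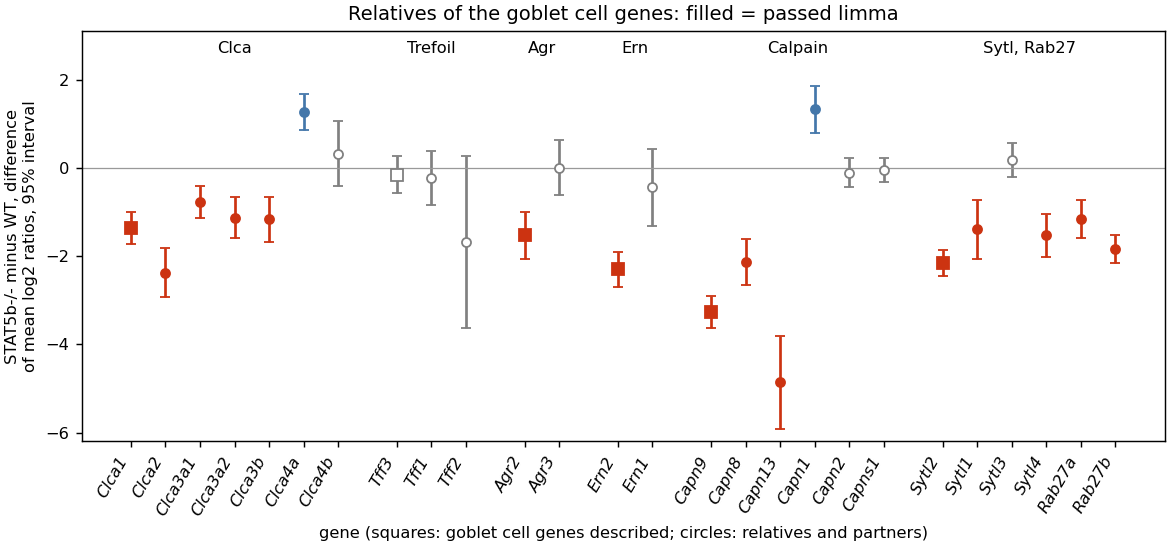
STAT5b-/- minus WT difference of mean log2 ratios with 95% intervals (vertical axis) for the goblet genes that have relatives or partners on the arrays (squares) and for those relatives (circles), by family; filled symbols passed limma at an adjusted p under 0.05. Clca4a at 1.26 and Capn1 at 1.33 lie above 0 in families whose goblet genes Clca1 and Capn9 lie at -1.36 and -3.27.

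In the order of their STAT5b-/- ratios, neighbouring goblet genes had array ranges that did not overlap at 3 points. From the lowest STAT5b-/- ratio upward the order was Capn9, Spdef, Ern2, Sytl2, Agr2, Atoh1, Clca1 and Tff3. Capn9 and Spdef overlapped, with the highest Capn9 array at 0.115 and the lowest Spdef array at 0.105. Spdef and Ern2 were apart (0.127 against 0.184), as were Sytl2 and Agr2 (0.233 against 0.258) and Clca1 and Tff3 (0.449 against 0.861). Ern2 and Sytl2, Agr2 and Atoh1, and Atoh1 and Clca1 overlapped. Ratios share no scale of level between genes, so this order is one of differences from WT. It leaves out the spread of the WT arrays: the 95% intervals of the log2 fold changes of Sytl2 (-2.45 to -1.87) and Agr2 (-2.05 to -1.01) overlap, and no difference between genes was tested.

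**Figure D4:**
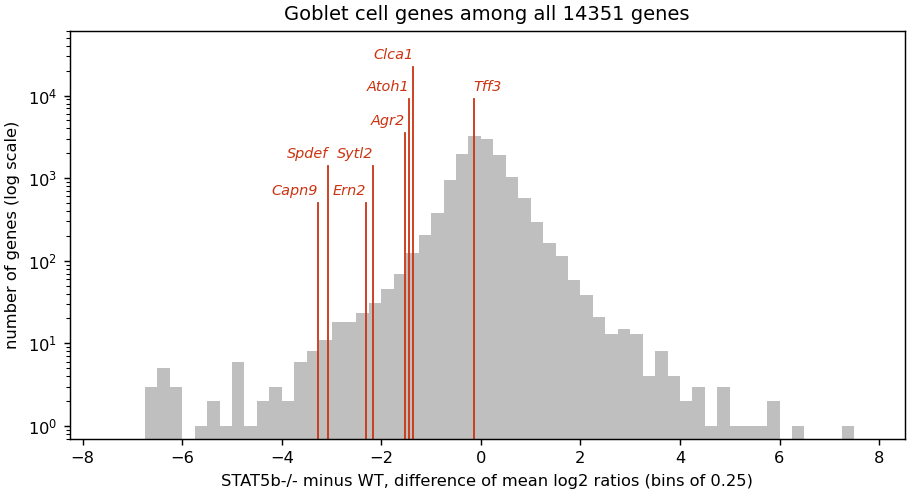
Number of genes (log axis) in bins of 0.25 of the STAT5b-/- minus WT difference of mean log2 ratios, over all 14351 genes in grey, with the 8 measured goblet genes marked by lines whose heights carry no value. Capn9 is the 43rd and Clca1 the 324th lowest of all genes, whereas Tff3 is the 5128th and lies within the main body.

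REF was set against WT as 1 further wild type sample. Over the 8 goblet genes the median log2 of the REF ratio to the WT mean was -0.18, against -0.06 over all genes. The fold changes of STAT5b-/- are differences of mean log2 ratios, which is a different statistic. REF lay below all 3 WT arrays in 4 of the 8, among them Capn9 and Agr2. The share of all genes with this pattern was not counted, so the 4 cannot be set against a background. With 1 sample in an arm limma could call little: St6galnac1, at 0.0882 in REF, had an unadjusted p of 0.00276 and an adjusted p of 0.998. The 0 genes that passed for REF against WT (0%, 0 of 14351) therefore do not show that REF and WT were alike, and 208 genes had an unadjusted p under 0.05, none of the 8 among them; the lowest unadjusted p of the 8 was 0.132, for Capn9 (adjusted p = 0.998). The mean log2 ratio of the 8 genes was 0.07, -0.02 and -0.07 in WT, -0.17 in REF and -1.93, -1.93 and -1.89 in STAT5b-/-. The male array, STAT5b-/- replicate 1, was thus level with the females, and without it all 7 falls passed again, with 5.11% of all genes lower.

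Among 21 measured goblet cell markers outside the 10 genes, 15 were lower and none higher (8.42% and 13.3% over all genes). Their median log2 fold change was -1.22. With quantile normalization 10 were lower. Slc12a8, a transporter, fell 7.48-fold, from 1.05, 0.863 and 1.09 to 0.121, 0.116 and 0.169. Ramp1, a receptor partner for calcitonin-family peptides, fell 5.08-fold, Tspan13, a tetraspanin, 4.99-fold, and Tnfaip8 3.95-fold. Pllp and Stard3nl, at 0.43 ± 0.15 and 0.29 ± 0.12 on the log2 scale, did not pass, although all their STAT5b-/- arrays lay above all their WT arrays, nor did Mlph, Galnt12, Tpd52 and Smim14.

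Markers of other cells of the tissue moved as well, and their part in the goblet results was not tested. The shares of all genes to set beside these counts were 8.42% lower and 13.3% higher, and list counts of 1 or 2 are too small to read against them. Of 12 epithelial markers, 5 were higher and 1 lower, and their mean log2 ratio was -0.04 to 0.04 in WT, 0.12 in REF and 0.40 to 0.46 in STAT5b-/-. Elf3, Cdh17, Gpa33 and Krt20 were among the higher, by 0.71 to 1.13 on the log2 scale, and the count of 5 ranged from 2 to 6 when 1 array was left out. It was 3 or lower without WT replicate 3 or STAT5b-/- replicate 2 or 3. The lower one, Krt18, lost its call when any of the 6 arrays was left out. Of 12 absorptive colonocyte markers, 8 were higher and 2 lower, with mean log2 ratios of -0.05 to 0.00 in WT, 0.09 in REF and 1.07 to 1.22 in STAT5b-/-. Their median log2 fold change, on which single large rises weigh less, was 0.85. Slc51a, a bile salt and steroid transporter subunit, rose 61.4-fold, Tmigd1 6.92-fold, the water channel Aqp8 2.73-fold and the lactate transporter Slc16a1 2.52-fold. The 2 lower calls, Ceacam20 and Scnn1a, were both lost without STAT5b-/- replicate 2 or 3. With quantile normalization 1 of the 12 epithelial and 2 of the 12 absorptive markers were higher.

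Of 13 enteroendocrine markers, which mark another secretory lineage that depends on Atoh1, 4 were lower and none higher. Insl5, a hormone of colonic endocrine cells, fell at least 97.4-fold and Pyy 3.83-fold, while Chga (0.41 ± 0.19) and Neurod1 (0.11 ± 0.22) did not pass. The list's mean log2 ratio was -0.15 to 0.16 in WT and -0.94 to -0.77 in STAT5b-/-. Insl5 weighs heavily on this mean, and the list's median log2 fold change was only -0.23. Of 12 tuft cell markers 3 were lower and none higher (mean log2 ratio -0.22 to 0.27 in WT and -0.70 to -0.45 in STAT5b-/-), with Hpgds down 3.38-fold and Pou2f3 at 0.04 ± 0.37 on the log2 scale. Rgs13 lost its call without STAT5b-/- replicate 1 or 3, where its log2 fold change was -1.05 and -0.95. Of the 10 Paneth cell markers 3 were measured and none passed. However, Pla2g2a was called lower without WT replicate 2 (limma adjusted p = 0.000135) and Mmp7 without WT replicate 1 (limma adjusted p = 0.0414). Pla2g2a was at the lowest value of the table, 0.01, in all 3 STAT5b-/- arrays. Its WT ratios were 0.0478, 2.90 and 0.0485, so 1 WT array set its mean, and REF was at 0.0454. Of 9 stem and proliferating crypt markers 2 were lower and 2 higher, among them Axin2 (-0.74 ± 0.14) and Ascl2 (0.48 ± 0.13), and their mean log2 ratio of -0.01 to 0.04 in STAT5b-/- lay within the WT range of -0.12 to 0.07. The call of Ascl2 was lost without any of the 6 arrays in turn, and that of Axin2 without STAT5b-/- replicate 2.

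Outside the epithelium, 5 of 12 fibroblast and smooth muscle markers were lower and none higher, with Dcn down 2.16-fold and Lum 2.56-fold; the count fell to 3 without WT replicate 3 or STAT5b-/- replicate 1 or 2. Their mean log2 ratio was -0.13 to 0.11 in WT, -0.18 in REF and -0.60 to -0.42 in STAT5b-/-. Of 10 leukocyte markers 4 were lower and 1, Cd3e, higher, a call lost without WT replicate 1 or 3 or STAT5b-/- replicate 1 or 3. The mean log2 ratio of the leukocyte list was -0.46 to 0.17 in WT, -0.39 in REF and -1.32 to -0.94 in STAT5b-/-. Mzb1, a folding factor of antibody-secreting plasma cells, fell 6.28-fold. With quantile normalization 1 fibroblast and smooth muscle marker, 2 leukocyte, 2 enteroendocrine and 1 tuft cell marker were lower, and no stem or proliferating crypt marker passed in either direction.

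**Figure D5:**
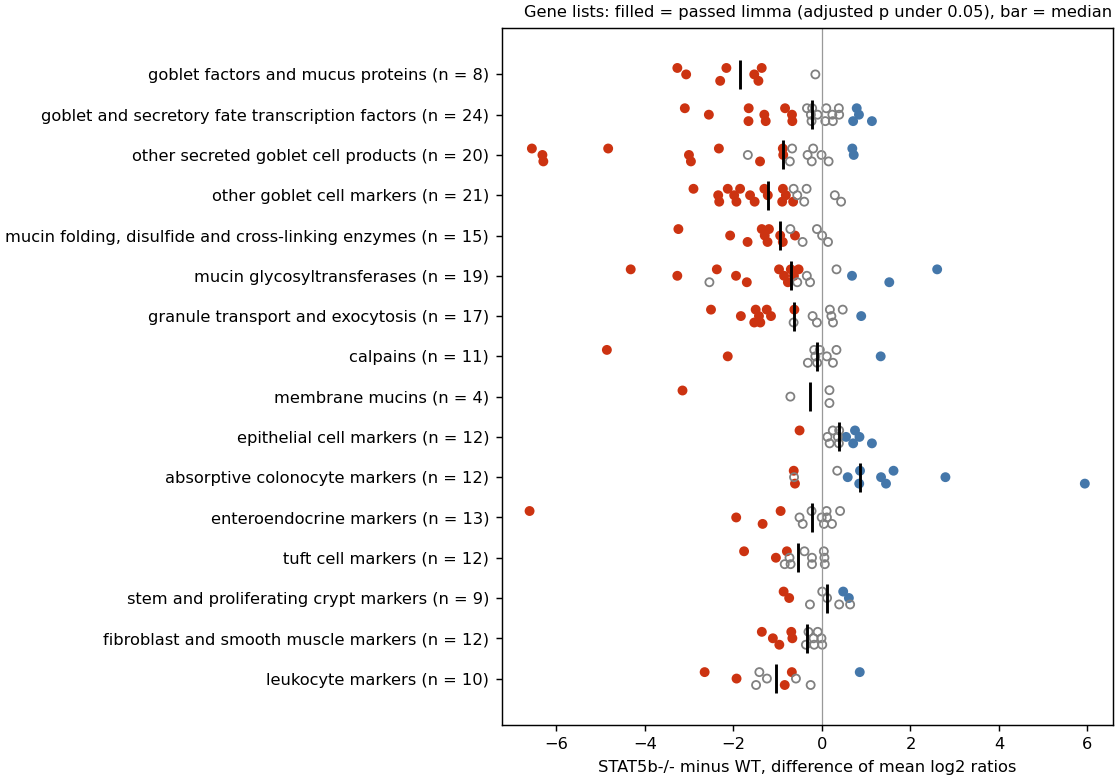
STAT5b-/- minus WT difference of mean log2 ratios (horizontal axis) of every measured gene in each list, 1 point a gene; filled points passed limma at an adjusted p under 0.05 (red lower, blue higher), open points did not, and the bar is the list's median. The goblet genes have their median at -1.84 and the absorptive colonocyte markers at 0.85.

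The genes whose pattern over the 7 samples was most like the mean of the 8 goblet genes were Anxa13, Ccn3, Hid1, Dock11 and Wfdc18, with Pearson correlations of 0.9982 to 0.9995. The 7 samples fall into a wild type and a STAT5b-/- cluster that set these correlations, which are a description without a test. Anxa13, an annexin of intestinal epithelium, had ratios of 1.09, 1.00 and 0.906 in WT, 0.117, 0.132 and 0.129 in STAT5b-/- and 0.852 in REF. Hid1, a protein of the secretory pathway, had 1.06, 0.997 and 0.942 in WT and 0.2, 0.190 and 0.213 in STAT5b-/-. Ccn3, a secreted matrix protein, fell to between 0.0114 and 0.0147, and Dock11 to between 0.389 and 0.413. Wfdc18, a secreted whey-acidic-domain protein, was at the lowest value of the table in 1 STAT5b-/- array and at 0.552 in REF.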

How the data were processed

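Gene expression was measured on Affymetrix arrays of adult mouse colon RNA, extracted on silica columns, amplified once and labelled with biotin, per the labels' protocols. The deposited values are linear ratios, in which the mean of the 3 WT arrays is 1 in every one of 26180 probe sets, and whose lowest value, 0.01, was treated as a floor. The submitters' processing notes name RMA, a method of background correction, normalization and probe summary, with no version. Of the array type, the sources used here say nothing further. No intensities were used, so dim probe sets could not be filtered, and the number of arrays limits the precision.

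Probe set names hold RefSeq accessions. These were looked up, version removed, in RefSeq's gene table for GRCm38.p6, used for names and gene order: 15228 probe sets matched 1 symbol, 0 several and 10952 none, giving 14351 genes. Promoters come from RefSeq on the same assembly and had entries for 6 of the 10 goblet genes. Log2 ratios, with no pseudocount, were averaged over a gene's probe sets. STAT5b-/- and WT were compared with limma 3.58.1 (lmFit, eBayes) in R 4.3.3 over those 6 arrays, two-sided, with p-values adjusted by Benjamini-Hochberg over all genes, and with calls at an adjusted p under 0.05. REF, as 1 sample, was compared with the 3 WT arrays likewise. Values after ± are standard errors of the fit unless SD is named. Folds come from mean log2 ratios, and "at least" marks lower bounds, where an array was at the floor.

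The goblet genes and the lists of related genes and cell type markers were chosen with earlier results of these data known, so lists are described by counts and medians. Some genes are in more than 1 list. Genes named are the goblet genes, Stat5b, the Clca, trefoil and gel-forming mucin relatives, up to 4 called genes with the smallest p in each other list, and the 5 genes most like the goblet mean. Of the genes this rule takes, 1 is not reported here. Any other gene named was chosen after its values were seen. The scripts were tested on simulated data. Alternatives were other scalings, a pseudocount of 0.1, other handling of probe sets and the floor, robust variances, a replicate block, REF as wild type, and each array left out in turn.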

Additional observations from a re-analysis of the deposited data

How the results depend on the processing

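Over 14 alternatives each, the 8 goblet genes gave 112 log2 fold changes, of which 111 kept their direction and side of the threshold, 0 reversed and 1 lost its call (Atoh1 with quantile normalization, above). The count of goblet genes called lower was 7 in every alternative but quantile normalization, where it was 6. When all 26180 probe sets were fitted on their own, 2188 of them were lower, among them 10 of the 11 of the goblet genes. Of these 10, the 4 of Sytl2 were almost identical and are not separate readings. Without 1 array the log2 fold changes stayed between -3.34 and -3.13 for Capn9, -3.20 and -2.92 for Spdef and -1.75 and -1.32 for Agr2. The counts over all genes moved more: quantile normalization called 165 higher and 227 lower (42.1% of its calls higher, where the reported fit had 61.2%), and the fit with the replicate number as a block called 1238 higher and 801 lower. When each array was left out in turn, 1053 to 2192 genes were called higher and 663 to 1359 lower. The lower count was 734, 663 and 734 without STAT5b-/- replicate 1, 2 and 3, and the higher count 1180, 1053 and 1118. The deviations of same-numbered WT and STAT5b-/- arrays correlated at 0.04, -0.10 and -0.19. Those of differently numbered arrays correlated at -0.14 to 0.22. With 3 arrays a group, these values cannot tell whether the arrays were paired. REF against WT called 0 genes under all 5 alternatives run for it. Of 476 list counts under alternatives, 76 moved by 1.5 times or more, 26 of them with quantile normalization and 43 without 1 array. Beyond the loss of calls that is built into quantile normalization of these ratios, the cause of these shifts was not tested.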

Other observations

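The goblet genes that have close paralogues beside them in the RefSeq gene order showed unlike values among neighbours. Clca1 lies on chromosome 3 between Clca4a, with a log2 fold change of 1.26, and Clca2, with -2.37, and the next genes on the Clca4a side are Clca4b (0.32) and Clca3b (-1.17). Agr2 lies on chromosome 12 between Agr3 (0.00) and Tspan13 (-2.32). Tff3 lies on chromosome 17 next to Tff2 (-1.67) and then Tff1 (-0.23), neither of which passed limma. On chromosome 6 Atoh1 is followed by Smarcad1 (-0.20) and then Hpgds (-1.76), a tuft cell marker. These are positions and values only, and no relation between them was tested.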
